A study of Mus musculus with 21 samples.

Results

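The chromatin of the untreated VDR line, a mouse medulloblastoma cell line, was set against that of primary medulloblastoma cells. The comparison uses 6 of the 21 libraries of the series, chosen by their labels: 3 of untreated VDR cells and 3 of tumor cells. VDR is labelled as a medulloblastoma cell line, and the labels give these 3 libraries no treatment, no genotype and no meaning for the name. The tumor libraries are of EGFP-positive cells sorted from dissociated cerebella that bore tumors in a genetically engineered mouse model, whose alleles are not given in the sources used here. Whether the libraries of a group came from separate cultures or animals is not stated, so p-values measure only the spread between these libraries, which may be technical. One cell line stands against sorted primary cells, so that culture, the line's own history and the sort cannot be told apart. The other libraries served only to look positions up: granule neuron progenitors (GNP, titled Ptch1GNP) and hyperplasia (titled PNC) from Atoh1EGFP cerebella of postnatal days 7 and 28, in that order, and VDR cells given a control siRNA (siNC) or an siRNA against Nfia (siNfia) or Nfib (siNfib).

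All libraries were made by Omni-ATAC, in which a transposase cuts open chromatin and the cut sites mark gene starts and enhancers. Hedgehog medulloblastoma grows from granule neuron progenitors of the cerebellum. In those cells the receptor Ptch1 holds back Smo, and when it no longer does, Gli factors switch on genes of division such as Ccnd2. Atoh1, Zic1, Barhl1, Pax6, Neurod1 and the other factors of the granule lineage mark the cells that give rise to the tumor, and nuclear factor I (NFI) proteins such as Nfia act as these cells mature.

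Each library is a list of summits, the positions where its signal peaked, with the score that the authors' caller gave each summit (a −log10 significance value). A score served only to rank summits within its own list, rank 1 being the highest. The untreated VDR lists held 194134, 159720 and 178840 summits, against 199727, 263313 and 195450 in the tumor lists. Their scores differed far more than their lengths: a score of at least 10 was reached by 14801, 11433 and 17335 summits in untreated VDR, against 100829, 153207 and 111809 in tumor. For this reason equal numbers of the highest summits were compared, 10000 and 100000 per list. Read depth is unknown, since the lists hold no read counts.

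The DNA just before 6 gene starts shows the kinds of site that the comparison turned up. Camk1g and Cntn2 had their best summits in untreated VDR, Neurod1 and Pou3f2 had theirs in tumor, and Hjurp and Sp1 are the 2 gene starts with the best mean rank over all 6 libraries. Each line gives the 250 bases upstream of the start listed in RefSeq (GRCm38.p6, the same coordinates as mm10), 5′ to 3′ on the gene's strand.
Camk1g (chr1:193370283-193370532, minus strand): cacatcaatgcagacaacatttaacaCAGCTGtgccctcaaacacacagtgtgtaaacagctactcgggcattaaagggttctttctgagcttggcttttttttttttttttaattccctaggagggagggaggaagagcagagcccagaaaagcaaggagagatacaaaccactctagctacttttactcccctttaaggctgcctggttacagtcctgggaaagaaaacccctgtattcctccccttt
Cntn2 (chr1:132542941-132543190, minus strand): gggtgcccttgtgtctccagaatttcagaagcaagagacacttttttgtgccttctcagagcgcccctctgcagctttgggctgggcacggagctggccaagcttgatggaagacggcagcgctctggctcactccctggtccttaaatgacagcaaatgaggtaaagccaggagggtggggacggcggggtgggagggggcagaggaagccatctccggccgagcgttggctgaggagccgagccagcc
Neurod1 (chr2:79456637-79456886, minus strand): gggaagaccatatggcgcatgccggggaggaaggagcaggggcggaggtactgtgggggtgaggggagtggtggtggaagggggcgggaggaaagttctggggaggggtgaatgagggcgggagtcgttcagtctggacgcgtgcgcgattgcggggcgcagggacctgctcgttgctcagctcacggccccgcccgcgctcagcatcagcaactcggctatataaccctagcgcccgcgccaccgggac
Pou3f2 (chr4:22488367-22488616, minus strand): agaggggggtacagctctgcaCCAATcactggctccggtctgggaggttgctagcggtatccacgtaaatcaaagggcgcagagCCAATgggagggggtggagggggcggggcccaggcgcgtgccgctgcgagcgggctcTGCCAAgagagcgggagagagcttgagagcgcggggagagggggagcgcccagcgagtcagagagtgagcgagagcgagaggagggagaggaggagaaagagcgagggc
Hjurp (chr1:88277580-88277829, minus strand): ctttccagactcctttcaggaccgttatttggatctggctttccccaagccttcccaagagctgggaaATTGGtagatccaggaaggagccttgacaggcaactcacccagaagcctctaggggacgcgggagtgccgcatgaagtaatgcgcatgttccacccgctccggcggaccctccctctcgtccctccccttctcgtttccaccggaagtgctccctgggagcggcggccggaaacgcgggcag
Sp1 (chr15:102406066-102406315, plus strand): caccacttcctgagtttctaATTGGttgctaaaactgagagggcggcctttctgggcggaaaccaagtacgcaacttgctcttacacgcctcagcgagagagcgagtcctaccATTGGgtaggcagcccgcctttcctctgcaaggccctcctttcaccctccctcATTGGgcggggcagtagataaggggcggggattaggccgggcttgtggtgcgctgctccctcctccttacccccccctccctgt
Capitals mark matches, on either strand, to the letters of known motifs. These were TGANTCA for AP-1, the motif of Fos and Jun, and TTGGCA for NFI. GLI factors were given TGGGTGGTC, basic helix-loop-helix factors the E-box CAGCTG, and NF-Y the CCAAT box, and matches may overlap. The Camk1g stretch held 1 match, to the E-box, and 1 CpG, with 44.8% G and C. The Neurod1 stretch held 22 CpGs with no match, and that of Pou3f2 held 18 CpGs, 2 CCAAT boxes and 1 NFI match. The Sp1 stretch held 3 CCAAT boxes and that of Hjurp held 1. A match describes letters only and is not a bound site.

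The strongest summits of the line and of the tumor lay largely at the same places, and the lists parted quickly below them. Of the 10000 highest summits, 97.3% ± 2.09 of those of untreated VDR had a summit within 250 bp in the whole list of a tumor library, and 92.3% ± 0.477 of those of tumor had one in the whole list of an untreated VDR library (SD, n = 3 each; exact two-sided permutation p = 0.1, the smallest that 3 against 3 can give). Of the 100000 highest summits these shares were 48.2% ± 5.24 of those of untreated VDR and 50.3% ± 0.322 of those of tumor (exact permutation p = 0.7). Both directions use the same pairs of libraries, so the values compared are not independent and these p-values are descriptive only. Every whole tumor list was also longer than every whole untreated VDR list.

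**Figure D1:**
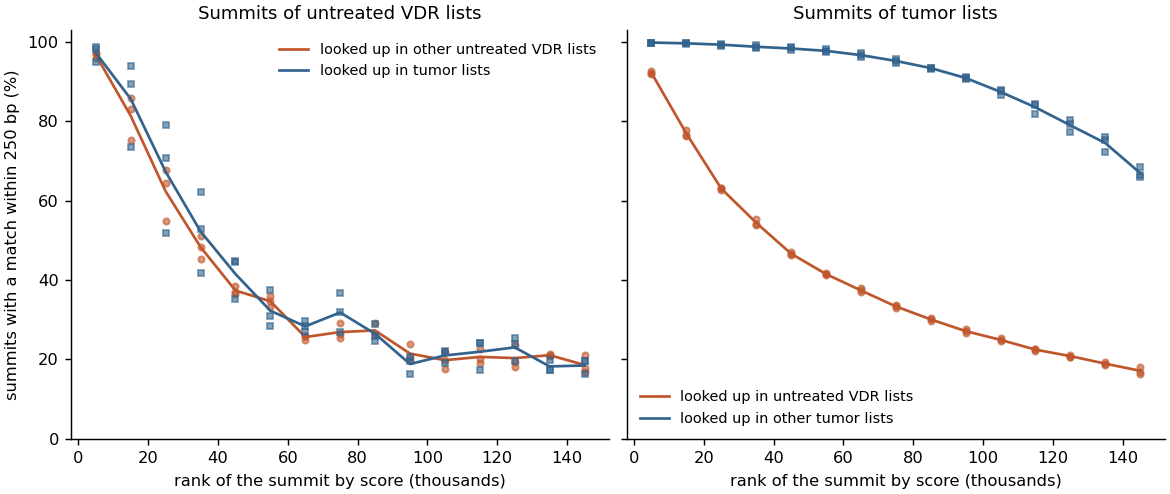
Share of summits (%, vertical axis) with a summit within 250 bp in the whole lists of other libraries, by rank of the summit in bands of 10000 (units of 1000 ranks, horizontal axis), for untreated VDR summits (left) and tumor summits (right). Points are libraries and lines are means. Untreated VDR summits lost their matches with rank alike in other untreated VDR lists and in tumor lists, while tumor summits were matched in other tumor lists in 99.9% in the first band, 91.0% in the band to rank 100000 and 67.0% in the band to rank 150000.

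The loss with rank set in within the line itself. In the first band of 10000 ranks, 96.8% of the summits of an untreated VDR library had a match in another untreated VDR library, and in the band from rank 40001 to 50000 the share was 37.4%. In tumor the same bands had 99.9% and 98.4%. Occupied 500-bp regions were compared in the same way. At 100000 summits the Jaccard index (shared regions over all regions of a pair) averaged 0.224 within untreated VDR, 0.248 between the groups and 0.747 within tumor, and at 10000 summits it averaged 0.447 within untreated VDR, 0.372 between the groups and 0.719 within tumor. At 100000 summits an untreated VDR library thus shared no more with another of its group, on average, than with a tumor library. Of the 211781 regions occupied in any of the 6 libraries at that length, 113113 were occupied in 1 untreated VDR library and no other. Results at 100000 summits therefore rest partly on summits that did not recur, and they are given beside those at 10000, where fewer genes could be tested.

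Near gene starts the groups were close among the strongest summits. At 10000 summits, 45.0%, 44.1% and 49.3% of untreated VDR summits lay within 1 kb of a gene start, against 50.1%, 52.4% and 47.8% of tumor summits. The values overlap, and the difference of −3.95 percentage points had an exact permutation p of 0.2. At 100000 summits the shares were 19.2%, 17.1% and 20.9% in untreated VDR, against 32.5%, 32.2% and 31.3% in tumor (19.1% ± 1.92 and 32.0% ± 0.658, SD, n = 3 each; exact permutation p = 0.1). There every untreated VDR library lay below every tumor library.

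Gene starts were then compared one by one. Of 21887 genes, 1973 had one of the 10000 highest summits within 1 kb of the start in all 6 libraries and 14856 had one in none. A start was held by 3 of 3 untreated VDR libraries and 0 of 3 tumor libraries for 202 genes (0.923% of genes), and by 0 of 3 untreated VDR and 3 of 3 tumor libraries for 446 (2.04%). These were differences of rank more than of presence. The whole lists of the tumor libraries held 99.8% of the 202 starts on average, at a median rank of about 17900, and the whole lists of untreated VDR held 90.2% of the 446, at a median rank of about 22200.

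**Figure D2:**
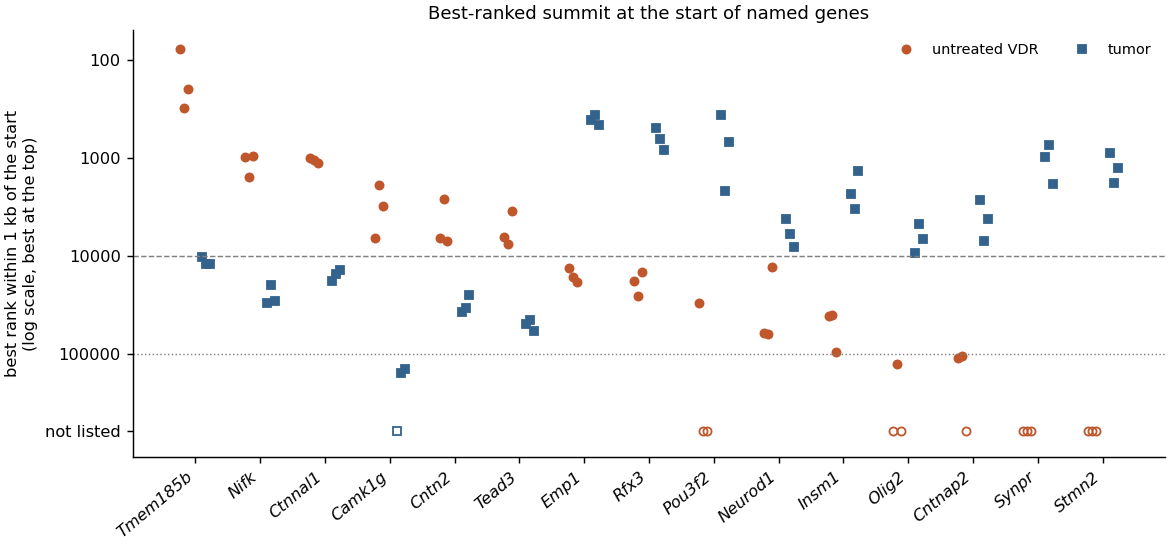
Best rank of a summit within 1 kb of the start of named genes (log scale, best at the top), in each untreated VDR library (circles) and each tumor library (squares). Open symbols are libraries whose whole list has no summit there. For Insm1 and Stmn2, which have no listed start, either gene end counted. The dashed line is rank 10000 and the dotted line rank 100000.

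Among the starts that stood out in the line, that of Tmem185b, which codes for a transmembrane protein, ranked highest. Its best ranks were 78, 309 and 197 in untreated VDR, against 10199, 12061 and 11915 in tumor. The start shared by Fam221b and Tmem8b ranked 1002, 388 and 389 in untreated VDR, against 14020, 10754 and 16037 in tumor. At both starts the untreated VDR ranks lie far from those of tumor, which begin just past 10000 and reach 16037. Ctnnal1, a relative of alpha-catenin, ranked 1007, 1047 and 1130 in untreated VDR, against 17862, 15251 and 13953 in tumor. Nifk, a nucleolar partner of Ki-67, ranked 985, 1578 and 965 in untreated VDR, against 29836, 19826 and 28640 in tumor. Tmem177, Fbxo10 and Arhgef2 complete the 8 of best mean rank. Tmem185b, Nifk and Tmem177 lie in a dense segment of chromosome 1 that is described further on. Fam221b, Tmem8b, Fbxo10 and Ctnnal1 lie together on chromosome 4, between positions 43659622 and 56865375. That chromosome also held more of the 10000 highest summits in untreated VDR (7.82%, against 6.88% in tumor).

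At 100000 summits 151 starts (0.69%) were held by untreated VDR alone, against 1031 (4.71%) by tumor alone and 8153 by all 6. The 151 were mostly weak, at a median rank of about 45200 in untreated VDR, and the whole tumor lists held 47.9% ± 9.96 of them (SD, n = 3). Camk1g, a calcium/calmodulin-dependent kinase, had the best mean rank among them: 6561, 1872 and 3119 in untreated VDR, while in tumor 1 library listed no summit and the others ranked 153753 and 141346. Its promoter is the first of the sequences above, and the siNC, siNfia and siNfib libraries all held it among their first 100000 summits, while no GNP or hyperplasia library did. Renbp, the renin-binding protein, ranked 14777, 11419 and 10804 in untreated VDR and was listed in no tumor library. Nrtn, the neurotrophic factor neurturin, ranked 12252, 7554 and 14554 in untreated VDR, while 1 tumor library listed none and the others ranked 101347 and 128494. Of the 72 starts in this set with a single listed position, the median held 7.0 CpGs in the 300-base window, against 23.0 over the 5269 held by all 6. The median was 16.0 for starts held by tumor alone and 13.0 over all 14731 windows. At 10000 summits the starts held by untreated VDR alone had a median of 21.0.

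The starts held by tumor alone were led by Emp1, an epithelial membrane protein. It ranked 13316, 16253 and 18498 in untreated VDR, against 412, 363 and 464 in tumor. Rfx3, a factor of ciliary genes, ranked 17855, 25200 and 14660 in untreated VDR, against 492, 635 and 826 in tumor. These starts were weaker in the line but present in all of its lists. Others were missing there. Synpr (synaptoporin) and Stmn2 (a stathmin of growing neurites) were listed in no untreated VDR library and ranked between 729 and 1834 in the tumor libraries. RefSeq lists no start for Stmn2, so either of its gene ends counted. Pou3f2, a POU factor of neural progenitors, ranked 30062 in 1 untreated VDR library and was not listed in the others, against 361, 2144 and 685 in tumor. Col11a1, Mical2 and Cstf2t were likewise absent from every untreated VDR list, with tumor ranks from 957 to 3364. All GNP and hyperplasia libraries held the starts of Emp1, Rfx3, Pou3f2, Synpr and Stmn2 among their 10000 highest summits.

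Base composition and motifs were tallied over the 300-base windows of genes with 1 listed start. Median G and C was 61.3% for the starts held by untreated VDR alone at 10000 summits, 63.3% for those held by tumor alone and 61.7% for those held by all 6, against 55.7% over all 14731 windows. The CCAAT box stood in 41.6% of the first set, 45.7% of the second and 64.8% of the third, against 39.6% of all windows. The NFI letters stood in 12%, 8.87% and 11.9% of the same sets, against 13.7% of all windows. The E-box stood in 20%, 11.9% and 11.9%, against 15%, and AP-1 in 4.8%, 2.73% and 3.55%, against 7.09%. GLI letters stood in none of the first set, 0.341% of the second and 0.0756% of the third, against 0.163% of all windows.

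Counted as 500-bp regions, the 10000 highest summits occupied 17183 places in the 6 libraries. Of these, 772 (4.49%) were occupied in 3 of 3 untreated VDR and 0 of 3 tumor libraries, 1455 (8.47%) in 0 of 3 and 3 of 3, and 2679 in all 6. Of these regions, 26.3% of the 772 and 31.8% of the 1455 lay within 1 kb of a start, against 60.8% of the 2679. Most of them had weaker summits in the other group. The whole tumor lists held 97.4%, 97.8% and 95.9% of the 772, and the whole untreated VDR lists held 80.7%, 68.9% and 82.3% of the 1455, so that 7 of the 772 and 128 of the 1455 had no summit in any whole list of the other group. At 100000 summits 2330 regions (1.1%) were occupied by untreated VDR alone and 17782 (8.4%) by tumor alone, and here presence differed more: the whole tumor lists held 25.2%, 37.9% and 26.5% of the first, and the whole untreated VDR lists 11.5%, 6.03% and 11.8% of the second.

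**Figure D3:**
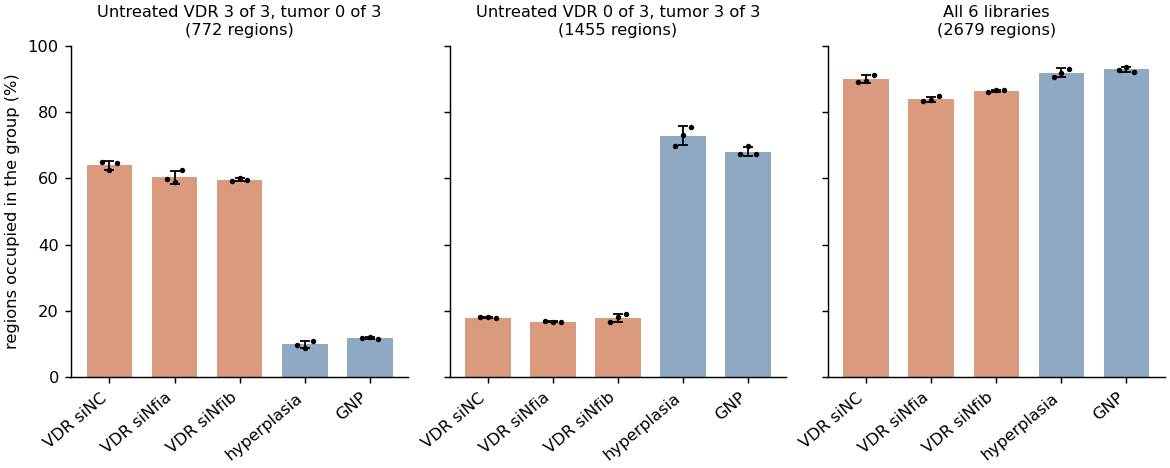
Share of regions (%, vertical axis) occupied at 10000 summits in libraries that did not choose them, for the 772 regions of untreated VDR (left), the 1455 of tumor (middle) and the 2679 of all 6 libraries (right). Bars are means, error bars SD and points libraries (n = 3 each). Regions of untreated VDR were occupied in 59.6 to 63.9% on average in the 3 siRNA-treated VDR groups and in 9.92 and 11.9% in hyperplasia and GNP.

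These regions were looked up in the libraries that took no part in choosing them. The 772 regions of untreated VDR were occupied in 63.9% ± 1.33 in VDR siNC, 60.4% ± 1.99 in siNfia and 59.6% ± 0.451 in siNfib, against 9.92% ± 1.09 in hyperplasia and 11.9% ± 0.252 in GNP (SD, n = 3 each). The 1455 regions of tumor were occupied in 18% ± 0.173 in VDR siNC, 16.8% ± 0.1 in siNfia and 18% ± 1.21 in siNfib, against 72.8% ± 2.81 in hyperplasia and 68.0% ± 1.36 in GNP. In both sets every siRNA-treated VDR library lay on the same side of every GNP and hyperplasia library as the untreated line did of the tumor. The 202 gene starts of untreated VDR behaved alike, with 75.9% ± 4.21 held in VDR siNC, against 23.9% ± 1.51 in hyperplasia and 16.7% ± 4.12 in GNP. The same was looked up at 100000 summits. The 2330 regions of untreated VDR were occupied in 37.9% ± 1.45 in VDR siNC, against 7.22% ± 0.839 in hyperplasia and 11.3% ± 0.702 in GNP, and the 151 starts were held in 37.3% ± 2.76 in VDR siNC, against 15.9% ± 3.5 in hyperplasia and 20.1% ± 2.68 in GNP. The 17782 regions of tumor were occupied in 29.8% ± 3.04 in VDR siNC, against 81.9% ± 1.86 in hyperplasia and 74.2% ± 0.907 in GNP. In such bulk libraries, fewer cells with an open site and a less open site in every cell cannot be told apart.

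By mean rank, the first 2 regions of the untreated VDR set lay at chr15:75086605-75087104, 21306 bp from Ly6c2, with ranks 19, 27 and 25, and at chr1:183299118-183299617 in the body of Aida, with ranks 29, 28 and 32. Every tumor library listed both further down. The first region of the tumor set lay at chr6:127181257-127181756, 29319 bp from Ccnd2, which codes for cyclin D2. It ranked 31, 46 and 83 in tumor, was listed in 1 of the 3 whole untreated VDR lists, was occupied in all GNP and hyperplasia libraries at 10000 summits and in no siRNA-treated VDR library. Regions 83279 bp from Parp11 and at the start of Tspan11, also on chromosome 6, ranked 154, 185 and 310, and 123, 142 and 376 in tumor. No list of artefact-prone regions was applied, so that repeats can lie among the highest-ranking places.

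Counting occupied regions per gene gave a test across genes. A region was counted for the gene whose body held it, or otherwise for the nearest gene within 100 kb, and log2(regions + 1) was compared with limma. At 10000 summits 3407 genes averaged at least 1 region, and the 2055 of them with some spread within a group were tested. Of these 2055, 230 (11.2%) were higher in untreated VDR and 267 (13.0%) lower at a Benjamini-Hochberg adjusted p below 0.05. The median log2 difference was −0.031. The values of the groups did not overlap, with untreated VDR higher, for 234 genes (11.4%), and with untreated VDR lower for 232 (11.3%). The other 1352, with no spread within either group, were left out of the fit. Of them, 125 differed between the groups, 45 higher and 80 lower in untreated VDR. With the 1352 kept in the fit, 158 genes were higher and 135 lower. When each library's values were centred on their chromosome medians, 141 were higher and 86 lower. Leaving out tumor replicate 1, 2 or 3 left 108, 115 or 113 genes lower. At 100000 summits 6768 genes averaged at least 3 regions, and the 6714 of them with some spread were tested. Of these 6714, 1943 (28.9%) were higher and 1389 (20.7%) lower, with a median of 0.0332. The groups did not overlap for 2005 (29.9%) and 1515 (22.6%). That balance depended on which summits were kept: with regions occupied in at least 2 of the 6 libraries, 537 genes were higher and 2660 lower, with a score of at least 10 in place of equal list lengths, 3 were higher and 4177 lower, and centred on chromosome medians, 1159 were higher and 1132 lower. Leaving out tumor replicate 2 or 3 left 884 or 894 lower. Called genes differed in length, with a median of 57.9 kb for those higher and 89.2 kb for those lower at 10000 summits, against 48.9 kb over all tested.

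Among the genes with the largest rise at 10000 summits, Sfi1, a centriole-associated protein gene that has near-identical copies in the mouse genome, held 21, 23 and 20 regions in untreated VDR, against 2, 1 and 1 in tumor (log2 change 3.28, SE 0.216, limma adjusted p = 1.12e-15). Reads of such copies can be placed among them, so its count is uncertain. Camk1g held 6, 8 and 6 regions in untreated VDR and none in tumor (limma adjusted p = 7.13e-11). Kif21b, a neuronal kinesin, held 5, 4 and 4 in untreated VDR and none in tumor (limma adjusted p = 5.29e-08). The siNC libraries held 4, 4 and 5 regions at Camk1g and 2, 3 and 3 at Kif21b. Anks1, an adaptor protein gene, held 3, 9 and 7 in untreated VDR, against 1, 0 and 0 in tumor (log2 change 2.44, limma adjusted p = 9.3e-08), a call that was lost, as was that of Sctr, with genes of no spread kept in the fit. Plekhh2, Scube3, Nmnat2, Ninj2, Tmem267 and Gm52481 were also listed with none in tumor, with 3 to 9 regions per untreated VDR library. The 10 largest rises were those of Sfi1, Camk1g, Gm52481, Tmem267 and Anks1 and of 5 genes in the dense chromosome 1 segment: Inhbb (an activin subunit), Bcl2 (an inhibitor of apoptosis), Tnfrsf11a, Sctr and Ralb. Kif21b, Plekhh2, Scube3, Nmnat2 and Ninj2 follow outside the segment and were chosen after their values were seen.

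The genes with the largest fall at 10000 summits were Ppp2r2c, Chd7, Cntnap2, Bach2, Parp11, Zfp618, Gm1043, Kcnh2, Ccnd2 and Dscaml1. Chd7, a chromatin remodeller that acts in granule progenitors, held 0, 0 and 1 regions in untreated VDR, against 7, 6 and 6 in tumor (log2 change −2.54, SE 0.286, limma adjusted p = 7.46e-09). Ppp2r2c, a regulatory subunit of protein phosphatase 2A, held none in untreated VDR, against 5, 4 and 6 in tumor (limma adjusted p = 7.62e-09). Bach2, a bZIP repressor, held none in untreated VDR, against 5, 3 and 5 in tumor (limma adjusted p = 9.3e-08). The GNP libraries held 6, 5 and 5 regions at Chd7 and 5 each at Ppp2r2c, and VDR siNC held 1, 0 and 0 at Chd7 and none at Ppp2r2c. Cntnap2, a neurexin-like adhesion protein, held none in untreated VDR, against 5, 4 and 4 in tumor (limma adjusted p = 5.29e-08). Unlike the other 3, Cntnap2 also held none in GNP and hyperplasia at this list length, and its start, ranked 2658, 6981 and 4186 in tumor, was outside the first 10000 in every GNP, hyperplasia and VDR library.

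At 100000 summits the 10 largest rises all lay in the chromosome 1 segment. Outside it, Far2 (a fatty acyl-CoA reductase) held 54, 80 and 45 regions in untreated VDR, against 3 each in tumor, and Mpdz (a scaffold of tight junctions) held 48, 62 and 78, against 4, 5 and 5. VDR siNC held 19, 12 and 5 regions at Far2 and 31, 22 and 12 at Mpdz, fewer than any untreated VDR library. These genes were chosen after their values were seen, as were the others that led outside the segment, Ccdc180, Gm5373, Zfp978, Zfp982, Smco2, Col11a2, Gm6749 and Gm12447. Among the largest falls, Nkain3, which codes for a partner of the sodium pump, held 1, 0 and 1 regions in untreated VDR, against 16, 15 and 16 in tumor (log2 change −3.39, SE 0.289, limma adjusted p = 8.54e-06). Unc5c, a netrin receptor that guides granule cells, held none in untreated VDR, against 11, 9 and 8 in tumor (limma adjusted p = 1.06e-05). Dpp6, a potassium channel subunit, held 1 in each untreated VDR library, against 20, 15 and 18 in tumor (log2 change −3.21, limma adjusted p = 1.28e-06). Hs2st1, Pcdh7, Synpr, Lingo2, Myrfl, Gdf6 and Adgrl2 complete the 10. The GNP and hyperplasia libraries held 12 to 16 regions at Dpp6 and 8 to 10 at Unc5c, while VDR siNC held none at either.

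**Figure D4:**
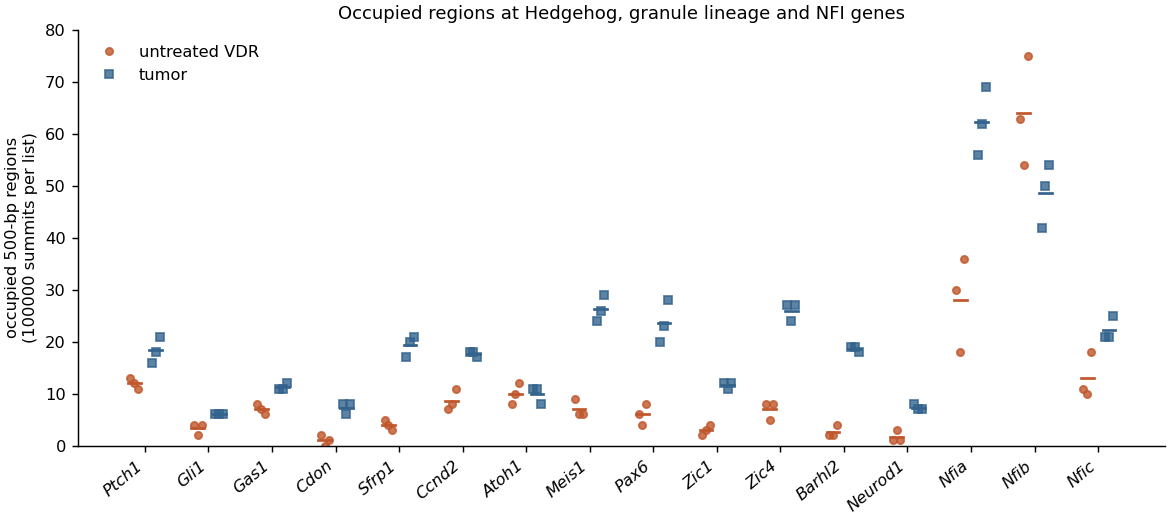
Occupied 500-bp regions (vertical axis, 100000 summits per list) at genes of the Hedgehog pathway, the granule lineage and the NFI family, in each untreated VDR library (circles) and each tumor library (squares). Short lines are group means. Counts were lower in untreated VDR at most of these genes, equal on average at Atoh1 and higher at Nfib.

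In the Hedgehog pathway, the receptor Ptch1 did not pass the test among the strongest summits. It held 2, 4 and 3 regions in untreated VDR and 3 in each tumor library at 10000 summits (log2 change −0.03, limma adjusted p = 0.94). Of 19 pathway genes, 10 were tested at this length, of which Gli2 rose and Smo, Ccnd2 and Sfrp1 fell, with a median of −0.333 against −0.031 over all genes, of which 11.2% rose and 13.0% fell. Ccnd2 held none in untreated VDR, against 4, 4 and 2 in tumor (limma adjusted p = 1.52e-05), and none in VDR siNC. Sfrp1, a secreted Wnt antagonist that Hedgehog signals induce, held 2, 1 and 1 in untreated VDR, against 5, 5 and 4 in tumor (log2 change −1.30, SE 0.261, limma adjusted p = 0.000265). Smo, the transducer of the signal, held 1, 1 and 0 in untreated VDR, against 1, 9 and 1 in tumor, and its adjusted p of 0.0346 was lost without untreated VDR replicate 3. Without tumor replicate 2 it fell below the filter of 1 region. The Smo start ranked 6 in that replicate, against 3287 and 3257 in tumor replicates 1 and 3, so its fall leans on 1 library.

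At 100000 summits 15 pathway genes were tested, 2 rose (Gli2 and Gpr161) and 7 fell (Gli1, Gas1, Ptch1, Evc2, Ccnd2, Sfrp1 and Cdon), with a median of −0.463 against 0.0332 over all genes, of which 28.9% rose and 20.7% fell. The co-receptor Cdon held 2, 0 and 1 regions in untreated VDR, against 8, 6 and 8 in tumor (log2 change −2.19, SE 0.38, limma adjusted p = 0.000774). Sfrp1 held 5, 4 and 3 in untreated VDR, against 17, 20 and 21 in tumor (log2 change −2.04, limma adjusted p = 2.19e-05). Ptch1 held 13, 12 and 11 in untreated VDR, against 16, 18 and 21 in tumor (log2 change −0.57, limma adjusted p = 0.0149), and the co-receptor Gas1 held 8, 7 and 6, against 11, 11 and 12. Both of these calls were lost without tumor replicate 2 or 3, and centring on chromosome medians put both slightly above 0. The effector Gli1 held 4, 2 and 4 in untreated VDR, against 6 in each tumor library, and its call was lost without any one of the tumor replicates. Centring on chromosome medians also removed that call. Gli3 held none in untreated VDR and 3 in each tumor library, with no spread to test. Mycn and Ccnd1 did not pass (limma adjusted p = 0.139 and 0.779). The rise of Gpr161 and the fall of Evc2, regulators at the cilium, did not stand after centring, which put Gpr161 at −0.17. Gli2, an activator of the targets, held 333, 382 and 328 in untreated VDR, against 45, 40 and 41 in tumor (log2 change 3.02, limma adjusted p = 1.22e-08), but it lies in the chromosome 1 segment and VDR siNC held 64, 69 and 53.

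Genes of granule progenitors mostly held fewer regions in the line. At 100000 summits 18 of 20 granule progenitor genes were tested, 2 rose (En1 and Cntn2) and 10 fell (Meis1, Zic2, Neurod1, Pax6, Insm1, Nhlh2, En2, Barhl2, Zic1 and Zic4), with a median of −0.764 against 0.0332 over all genes, of which 28.9% rose and 20.7% fell. Barhl2, a homeobox factor of the lineage, held 2, 2 and 4 regions in untreated VDR, against 19, 19 and 18 in tumor (log2 change −2.47, SE 0.23, limma adjusted p = 1.47e-05). Pax6 held 6, 4 and 8 in untreated VDR, against 20, 23 and 28 in tumor (log2 change −1.85, limma adjusted p = 9.06e-05). Meis1, a homeobox cofactor, held 9, 6 and 6 in untreated VDR, against 24, 26 and 29 in tumor (log2 change −1.79, limma adjusted p = 3.02e-05). Zic1 and its neighbour Zic4 had log2 changes of −1.69 and −1.78 (limma adjusted p = 0.000143 and 3.77e-05). At Zic1 the VDR siNC libraries held 10, 11 and 13 regions, close to the tumor values of 12, 11 and 12 rather than the 2, 3 and 4 of untreated VDR. At Barhl2 they held 6, 9 and 7, between the groups. The calls of Zic2 and Nhlh2 were lost without either of 2 tumor replicates and without 1 untreated VDR replicate, and also after centring on chromosome medians.

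Atoh1, the factor that defines granule progenitors, did not pass the test at either length. It held 8, 10 and 12 regions in untreated VDR, against 11, 11 and 8 in tumor, at 100000 summits, and 3, 4 and 4, against 3, 4 and 3, at 10000 summits (limma adjusted p = 0.995 and 0.741). Its start ranked 3174, 6805 and 3212 in untreated VDR, against 463, 1 and 587 in tumor. The tumor cells were EGFP-positive, and the GNP and hyperplasia labels name Atoh1EGFP. Whether reporter DNA adds to the summits at Atoh1 was not tested. At 10000 summits 10 progenitor genes were tested, of which Meis1, Barhl1 and Zic4 fell and none rose, where 13.0% of all genes fell. Barhl1 held 1, 0 and 1 regions in untreated VDR, against 3, 3 and 4 in tumor (log2 change −1.44, SE 0.299, limma adjusted p = 0.000359). The calls of Zic4 and Meis1 were lost without tumor replicate 1 and tumor replicate 3, in that order, and all 3 with genes of no spread kept in the fit.

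Starts of the lineage also differed in rank. That of Neurod1, a factor of granule neuron differentiation, ranked 59939, 61686 and 12887 in untreated VDR, against 4218, 5935 and 8017 in tumor, and that of Insm1, a zinc finger factor of neural progenitors, ranked 40279, 39774 and 94775, against 2317, 3344 and 1349. Insm1 has no listed start, so either of its gene ends counted. Cntn2, an adhesion protein of young granule neurons, differed in the opposite direction, with 6513, 2620 and 7073 in untreated VDR, against 36946, 33499 and 24579 in tumor. In VDR siNC the Cntn2 start was held by 3 of 3 libraries at 10000 summits and the Neurod1 and Insm1 starts by none, and in GNP and hyperplasia the reverse held in every library. Cntn2 also held more regions at 100000 summits, 22, 22 and 15 in untreated VDR, against 8, 7 and 6 in tumor (log2 change 1.36, limma adjusted p = 0.00026), a call that was lost when values were centred on chromosome medians.

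As a check of the label, the 8 markers of the granule lineage summed to 58, 54 and 61 regions in untreated VDR, against 102, 100 and 106 in tumor, at 100000 summits, and no member was without a region. All 8 starts were held in the 3 tumor libraries and 6 in the 3 untreated VDR libraries, where Zic4 and Pax6 were missing from at least 1. Both groups thus had summits at markers of the lineage. Of other cell types, the 8 markers of Purkinje cells and interneurons summed to 13, 13 and 8 in untreated VDR, against 33, 35 and 28 in tumor, with Pcp2 at 0 in all 6 libraries. Those of oligodendrocytes summed to 38, 28 and 39, against 50, 56 and 52. Those of microglia and immune cells summed to 49, 53 and 46, against 17, 14 and 15, of which Irf8 alone gave 36, 37 and 26, against 7, 5 and 6. In VDR siNC these lists summed to 8 to 12, 24 to 26 and 8 to 15, in that order. The sums overlapped for astrocytes (49, 45 and 37, against 40, 40 and 35), endothelial and mural cells (38, 41 and 27, against 31, 30 and 31) and fibroblasts (32, 25 and 24, against 33, 33 and 28). At 10000 summits the microglia and immune list summed to 0, 2 and 0 in untreated VDR, from 1 region each at Spi1 and Irf8, against 0 in every tumor library, with Csf1r, Cx3cr1, Aif1, Ptprc, P2ry12 and Tyrobp at 0 in all 6. The fibroblast list summed to 2, 3 and 4 in untreated VDR, against 2, 3 and 3 in tumor, all from Pdgfra and Prrx1, with Col1a1, Col1a2, Col3a1, Dcn, Lum and Twist1 at 0 in all 6. The part of other cells in the differences was not tested.

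Among tested genes of granule neuron maturation and of synaptic adhesion, more fell than rose at 100000 summits, where 28.9% of all tested genes rose and 20.7% fell. Of 17 maturation genes, 12 were tested at 100000 summits, 3 rose (Rbfox3, Grm4 and Cbln1) and 7 fell (Neurod2, Tiam1, Sema6a, Unc5c, Reln, Cadps2 and Dcx), with a median of −0.663 against 0.0332 over all genes. Reln, the guidance protein that granule cells secrete, held 6, 4 and 5 regions in untreated VDR, against 27, 30 and 30 in tumor (log2 change −2.33, SE 0.179, limma adjusted p = 4.45e-06). Cadps2, a factor of vesicle release, held 4, 2 and 1 in untreated VDR, against 14, 12 and 9 in tumor (log2 change −2.01, limma adjusted p = 0.000422). The calls of Neurod2, Tiam1, Sema6a and Cbln1 were each lost without any one of 4 single libraries, and that of Dcx without tumor replicate 3. Of 22 synaptic adhesion and long neuronal genes, 20 were tested, 2 rose (Cntnap5a and Dpp10) and 12 fell, with a median of −0.953. Lsamp, an adhesion protein of neurites, held 7, 3 and 3 in untreated VDR, against 46, 32 and 28 in tumor (log2 change −2.82, limma adjusted p = 2.27e-05), and Nlgn1 (neuroligin) held 3, 4 and 4, against 14, 15 and 16 (log2 change −1.78, limma adjusted p = 3.14e-05). The call of Cdh12 was lost without untreated VDR replicate 2 or tumor replicate 1, and that of Il1rapl1 without tumor replicate 1. At 10000 summits 9 were tested, beside 11.2% of all tested genes that rose and 13.0% that fell at that length. Nrxn3 rose and Pcdh9, Cntnap2, Dlg2 and Ntm fell. Of these calls, that of Nrxn3 (3, 2 and 2 regions in untreated VDR, against 0, 0 and 1 in tumor) stood without each single library. The sign was opposite with longer lists, with −0.29 at 20000 summits and a call at 100000, where Nrxn3 held 14, 13 and 19 in untreated VDR, against 33, 27 and 30 in tumor (log2 change −0.94, limma adjusted p = 0.00104). The call of Cntnap2 at 10000 summits stood without each but tumor replicate 1, where it had no spread to test. The other 3 were each lost without any one of 2 or 3 single libraries. Starts of 10 of the 22 were held by tumor alone at 100000 summits and that of 1, Dpp10, by untreated VDR alone. Over all genes, 4.71% of starts were held by tumor alone and 0.69% by untreated VDR alone. Cntnap5a and Dpp10 lie in the chromosome 1 segment. These genes are long, and genes that fell were longer than those tested in general (median 95.1 kb, against 43.4 kb, at 100000 summits).

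The 4 NFI genes, whose products bind the TTGGCA motif, differed among themselves. Nfia held 5, 2 and 6 regions in untreated VDR, against 11, 13 and 14 in tumor, at 10000 summits (log2 change −1.44, SE 0.231, limma adjusted p = 7.72e-06), and 30, 18 and 36, against 56, 62 and 69, at 100000 (log2 change −1.18, limma adjusted p = 0.00097). VDR siNC held 37, 40 and 46 at 100000 summits, also below every tumor library. Nfib held 8, 8 and 7 in untreated VDR, against 6, 4 and 9 in tumor, at 10000 summits (limma adjusted p = 0.356). At 100000 summits it held 63, 54 and 75 in untreated VDR, against 42, 50 and 54 in tumor (log2 change 0.38, limma adjusted p = 0.0466). That call was lost without any one of 4 single libraries, and the sign changed with whole lists. Nfic fell at both lengths (log2 change −1.05 and −0.78, limma adjusted p = 0.0129 and 0.0103), the first of which was lost without untreated VDR replicate 3 or tumor replicate 3 and both of which were lost after centring on chromosome medians. Nfix did not pass at either (limma adjusted p = 0.228 and 0.0539). The Nfia call at 10000 summits was lost with genes of no spread kept in the fit. The median over the 4 genes was −0.377 at 10000 and −0.227 at 100000 summits, against −0.031 and 0.0332 over all genes. Of all tested genes, 11.2% rose and 13.0% fell at 10000 summits, and 28.9% rose and 20.7% fell at 100000.

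Stress-response and Hippo genes were called in both directions, and their counts are set against the 28.9% of all genes that rose and the 20.7% that fell at 100000 summits. Of 14 AP-1 and related genes, 12 were tested at 100000 summits, Batf3, Atf3, Maff and Jund rose, and Bach1, Bach2, Jun and Fosl2 fell, with a median of −0.0543 against 0.0332 over all genes. Atf3, a stress-induced factor, held 14, 14 and 13 regions in untreated VDR, against 2, 3 and 3 in tumor (log2 change 2.01, SE 0.202, limma adjusted p = 2.29e-05), but 4, 5 and 5 in VDR siNC, and its call was lost with regions occupied in at least 2 libraries. Bach2 held 6, 5 and 6 in untreated VDR, against 31, 31 and 34 in tumor (log2 change −2.31, limma adjusted p = 2.13e-06), and 9, 10 and 10 in VDR siNC. Jun held 6, 8 and 10, against 16, 16 and 15 in tumor (log2 change −0.91, limma adjusted p = 0.00282). The calls of Jund, Bach1 and Fosl2 were lost without any one of 3 to 5 single libraries. Of 16 Hippo genes, 10 were tested, Tead3 and Stk4 rose, and Yap1, Wwtr1, Tead1 and Tead4 fell, with a median of −0.0283 against 0.0332 over all genes, and the call of Tead4 was lost without any one of 4 single libraries. Yap1, the pathway's coactivator, held 2, 0 and 0 in untreated VDR, against 5, 7 and 7 in tumor (log2 change −2.33, limma adjusted p = 0.00123), but 5, 5 and 6 in VDR siNC. Tead3, a partner of Yap1, held 18, 20 and 19, against 3, 3 and 2 in tumor (log2 change 2.46, limma adjusted p = 5.57e-06), and 6, 6 and 5 in VDR siNC. The starts of the target genes Ccn1 and Ccn2 were held by tumor alone at 100000 summits. For Ccn2, which has no listed start, either gene end counted.

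Among growth-control genes, Kmt2d, Tsc1 and Tsc2 rose and Arid1a fell of 12 tested at 100000 summits, with a median of 0.0488 against 0.0332 over all genes. Over all genes 28.9% rose and 20.7% fell. The call of Arid1a was lost without any one of 4 single libraries and those of Kmt2d and Tsc1 after centring. The start of Cdkn2b, a cyclin-dependent kinase inhibitor, was listed in no untreated VDR library and ranked 14025, 25384 and 24719 in tumor. Cdkn2a held 1, 1 and 2 regions in untreated VDR, against 4, 3 and 3 in tumor, below the filter. Trp53 held 2, 2 and 3, against 4 in each tumor library (limma adjusted p = 0.0705). Cdkn1a, the p21 gene that Trp53 induces, held 3, 1 and 2 in untreated VDR and none in tumor at 10000 summits (limma adjusted p = 0.0195). At 100000 summits Cdkn1a held 6, 12 and 5, against 4, 5 and 5 in tumor, and did not pass (limma adjusted p = 0.139). Of 16 cell cycle genes, 8 were tested at 100000 summits, E2f1, Mybl2 and Mcm5 rose and Cdk6 fell, with a median of 0.22, beside the same shares over all genes, and the starts of 15 were held by all untreated VDR libraries and those of 16 by all tumor libraries. The call of Mcm5 was lost after centring, with 50000 summits, with 250-bp regions and with regions in at least 2 libraries, and that of E2f1 with 50000 summits. Cdk6, the partner of D cyclins, held 5, 2 and 8, against 15, 17 and 17 in tumor (log2 change −1.67, limma adjusted p = 0.00168). Of 20 housekeeping genes, 17 starts were held by all untreated VDR libraries and 19 by all tumor libraries, and of 5 tested, Ywhaz and Actb rose (median 0.495), of which Actb was lost without any one of 4 single libraries and Ywhaz after centring.

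Genes of other fates were called in both directions, beside 28.9% of all genes that rose and 20.7% that fell at 100000 summits. Of 14 neural stem and glial progenitor genes, 10 were tested at 100000 summits, Sox10 rose and Olig2, Olig1 and Sox2 fell, with a median of −0.25, and the call of Sox2 was lost after centring on chromosome medians. Olig2, a factor of early progenitors and oligodendrocytes, held 3, 0 and 3 regions in untreated VDR, against 10, 9 and 10 in tumor (log2 change −2.08, SE 0.452, limma adjusted p = 0.003). Its start ranked 9191, 4673 and 6645 in tumor and was listed once in untreated VDR, at rank 125765. Sox10, an oligodendrocyte factor, held 8, 10 and 11 in untreated VDR, against 1, 2 and 1 in tumor (log2 change 2.21, limma adjusted p = 5.09e-05), but 2 in each VDR siNC library. Of 20 mesenchymal and matrix genes, 15 were tested, Twist2, Prrx1, Col5a1 and Foxf1 rose and Col6a1, Tgfbi, Zeb1, Zeb2, Pdgfra and Tbx18 fell, with a median of −0.14. The calls of Prrx1 and Col6a1 were lost without any one of 3 and 5 single libraries, those of Prrx1, Col6a1, Tgfbi and Pdgfra after centring, and that of Col5a1 with 50000 summits, whole lists or regions in at least 2 libraries. Twist2 held 24, 23 and 18 in untreated VDR, against 2, 3 and 3 in tumor (log2 change 2.63, limma adjusted p = 5.09e-06), and 3, 4 and 3 in VDR siNC. Of 26 Hox genes, which set position along the body axis, 2 were tested and both rose (median 2.0). Hoxc4 held 2, 3 and 3 in untreated VDR and none in tumor at 10000 summits (limma adjusted p = 0.000359), and VDR siNC held 2, 1 and 1. Hoxc13 held 5, 9 and 4 in untreated VDR at 100000 summits and none in tumor (limma adjusted p = 0.00024), and none in VDR siNC. At 10000 summits these lists gave single calls: Tead3 rose and Tead1 fell of 4 Hippo genes tested, Thy1 rose of 3 mesenchymal genes and Cdk1 fell of 6 cell cycle genes, each lost without at least 1 single library. At that length 11.2% of all tested genes rose and 13.0% fell.

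Summits were shared out among the chromosomes differently in the line. At 10000 summits chromosome 1 held 10.6%, 13.1% and 10.6% of untreated VDR summits, against 6.12%, 5.73% and 6.23% of tumor summits. Chromosome 8 held 8.66% ± 0.321 in untreated VDR and 5.59% ± 0.0306 in tumor, chromosome 15 held 6.9% ± 0.305 and 3.93% ± 0.0208, and chromosome 17 held 7.47% ± 0.392 and 4.77% ± 0.116 (SD, n = 3 each). The VDR siNC libraries averaged 10.1%, 8.66%, 7.7% and 7.22% on chromosomes 1, 8, 15 and 17, beside untreated VDR means of 11.4%, 8.66%, 6.9% and 7.47%. Chromosomes 13 and 18 held 2.54% and 1.67% in untreated VDR, against 4.12% and 2.9% in tumor. Untreated VDR lay above tumor without overlap on 6 chromosomes and below it on 12, and 3 overlapped, chromosome 6 among them (9.16% ± 0.522 and 8.67% ± 1.44). No exact permutation p was below 0.1, and the lowest adjusted over chromosomes was 0.117.

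**Figure D5:**
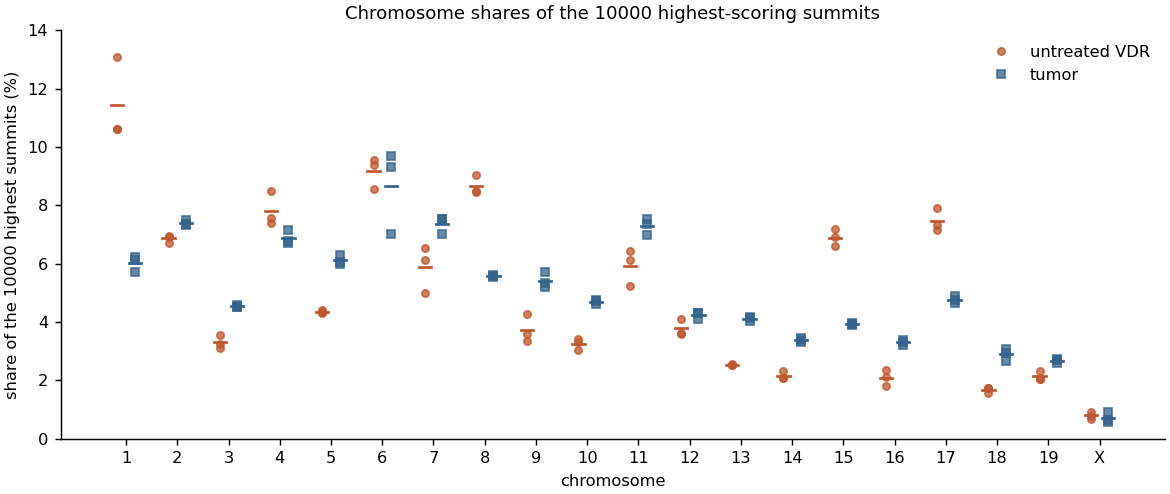
Share of the 10000 highest summits (%, vertical axis) on each chromosome (horizontal axis) in each untreated VDR library (circles) and each tumor library (squares). Short lines are group means. Chromosomes 1, 8, 15 and 17 lie higher in all untreated VDR libraries and most other chromosomes lower.

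Gene calls were counted by chromosome. Chromosomes 1, 8, 15 and 17 held larger shares of these same summits in untreated VDR. More genes higher there thus follows in part from how chromosomes were grouped. On chromosomes 1, 8, 15 and 17, 142 of 579 genes tested at 10000 summits were higher in untreated VDR (24.5%) and 17 lower (2.94%), while on the other chromosomes 88 of 1476 were higher (5.96%) and 250 lower (16.9%). Chromosome 4, counted among the others, had 28 of 161 genes higher (17.4%) and 24 lower (14.9%). At 100000 summits 1161 of 1873 were higher on those 4 chromosomes (62.0%) and 67 lower (3.58%). On the others 782 of 4841 were higher (16.2%) and 1322 lower (27.3%). The rise at that length reached further chromosomes, with 248 of 624 genes higher on chromosome 2 (39.7%), 166 of 463 on 4 (35.9%) and 218 of 494 on 6 (44.1%), while on each of the remaining autosomes and X at most 8.72% were higher. Among the genes named above, Camk1g, Cntn2, Atf3, Batf3 and Twist2 lie on chromosome 1, Sfrp1, Irf8 and Foxf1 on chromosome 8, Sox10, Kmt2d and the Hoxc genes on chromosome 15, and Tead3, Tsc2, Grm4 and Cdkn1a on chromosome 17. Sfrp1 fell although its chromosome held a larger share. After centring on chromosome medians the calls of Atf3, Batf3, Twist2, Sox10, Tead3, Foxf1 and Irf8 stood, and those of Cntn2, Maff, Kmt2d and Hoxc4 at 100000 summits did not. Falls were lost by centring too, among them Gli1, Zic2, Nhlh2, Sema6a, Dcx, Ntm and Il1rapl1 at 100000 summits. At 10000 summits Smo, Meis1, Sema6a, Tead1, Cdk1, Dlg2, Pcdh9, Ntm and Foxp2 were among them. The falls of Barhl2, Pax6, Meis1, Zic1, Zic4 and Reln at 100000 summits stood. Whether the number of chromosome copies differs between the line and the tumor was not tested.

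One segment of chromosome 1, chr1:98000000-124999999, was chosen for its density in untreated VDR. Summits at 100000 per list were counted in bins of 1000000 bp. A bin qualified where every untreated VDR library held at least 3 times the highest tumor count, taken as at least 5. Such bins numbered 42 in 11 runs, and the longest run, of 27 bins, is this segment. Its excess over tumor follows from that choice, and the 10000 highest summits were among those used. The VDR siNC libraries took no part in it. The segment held 5.64%, 6.67% and 4.76% of the 100000 highest summits in untreated VDR, against 0.363%, 0.34% and 0.372% in tumor and 0.602% ± 0.0603 in VDR siNC (SD, n = 3). At 10000 summits the means were 2.39% ± 0.949 in untreated VDR and 0.34% ± 0.0436 in tumor. Dpp10, a potassium channel subunit gene in it, held 249, 282 and 161 regions in untreated VDR at 100000 summits and none in tumor or VDR siNC. Cntnap5a likewise held 119, 104 and 69 in untreated VDR and none in the others. En1, a homeobox gene of the hindbrain, held 68, 85 and 48 in untreated VDR, against 7, 6 and 11 in tumor and 1, 0 and 1 in VDR siNC. At 10000 summits VDR siNC held 0.803% ± 0.0153 in the segment. The segment held 53 of the 1943 genes that were higher at 100000 summits and 18 of the 230 at 10000, and 628 of the 2330 regions of untreated VDR at 100000 summits (27.0%) and 66 of the 772 at 10000 (8.55%). Leaving its genes out left 1883 higher and 1383 lower at 100000 summits and 212 higher and 267 lower at 10000.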

How the data were processed

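The authors deposited 1 list of peak summits per library, made from Omni-ATAC reads with Bowtie2, Picard and MACS2 on mm10, per the submitters' processing notes, with versions and settings not given in the sources used here. The score the authors deposited with each summit is a −log10 value, and it is not stated whether of p or q. It was used only to rank summits within a list. Libraries were grouped by their labels.

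The 10000 and the 100000 highest summits of each list were kept. Regions of 500 bp were laid over the kept summits of the 6 libraries and counted as occupied where they held one. A gene start was the start listed by RefSeq (GRCm38.p6) for 17492 genes, or both gene ends for the 4395 with none listed. Regions per gene were compared on log2(regions + 1) with limma 3.58.1 (R 4.3.3, trended empirical Bayes) and Benjamini-Hochberg adjustment, for genes with a mean of at least 3 regions at 100000 and 1 at 10000 summits. A log2 change on this scale understates that of low genes. Genes with no spread within either group (54 and 1352) were left out, since they distort the shared estimate of spread, which was decided after the data were seen. The moderated fit had 11.1 degrees of freedom at 100000 and 43.4 at 10000 summits, so small p-values lean on spread shared across genes. Single values per library were compared by exact two-sided permutation. The procedure was checked on simulated counts with known changes, drawn independently for each gene. These held no chromosome-wide differences and no summits that failed to recur, so the check does not cover such features of the real lists. Tables were made with python 3.11.15, pandas 2.3.3 and numpy 2.4.6.

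Named genes were the 10 largest changes in each direction, the 8 starts of best mean rank in each set at 10000 summits, those at 100000 summits (chosen after their values were seen), a fixed set of lineage genes and the called members of the lists. Some list members are not reported here and were left out of the lists' counts and medians. The genes, lists and segment were chosen with earlier results of these data known. Alternatives covered list length, score, region width, pseudocount, filter, samples in the fit, replicate block, centring and single libraries left out. Same-numbered libraries did not deviate together, with correlations from −0.0505 to 0.0333.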

Additional observations from a re-analysis of the deposited data

How the results depend on the processing

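Read depth is unknown, 3 against 3 libraries cannot give an exact p below 0.1, and summits past about the first 10000 of untreated VDR often did not recur; the cause of each change below was not tested unless the setting itself makes it. Genes higher and lower at 100000 summits numbered 832 and 564 with 50000 summits, 2090 and 2503 with whole lists, 3 and 4177 with a score of at least 10, 1797 and 2267 with 250-bp regions, 2779 and 2299 with no filter, 1781 and 2185 with 12 libraries, 537 and 2660 with regions in at least 2 libraries, and 1159 and 1132 after centring on chromosome medians, against 1943 and 1389. Leaving out 1 library gave 1715 to 1841 higher and 884 to 1580 lower. At 10000 summits they numbered 117 and 93 with 5000, 515 and 598 with 20000, 202 and 177 with a pseudocount of 0.5, 216 and 399 with 12 libraries, 169 and 299 with regions in at least 2 libraries, 141 and 86 after centring, and 158 and 135 with genes of no spread kept, against 230 and 267, and 154 to 189 and 108 to 302 without 1 library. With the replicate block the counts were 1826 and 1307 at 100000 and 24 and 8 at 10000 summits, although the numbers were not found to pair the libraries. Regions of untreated VDR alone and tumor alone at 100000 numbered 7963 for tumor with 50000 summits, 3877 and 39242 with whole lists and 37 and 42741 with a score of at least 10, and 1299 for untreated VDR when no whole tumor list held them, with 2496 to 6794 and 19806 to 22039 without 1 library. At 10000 they numbered 474 and 828 with 5000, 1195 and 2898 with 20000 and 7 and 128 against whole lists, with 857 to 1273 and 1729 to 1909 without 1 library. Gene starts at 100000 numbered 2 and 5049 with a score of at least 10, and those of untreated VDR alone 79 within 500 bp, 258 within 2000 bp and 99 with listed starts only, with 161 to 266 and 1117 to 1568 without 1 library. Those of tumor alone at 10000 numbered 677 with 20000 summits, with 225 to 336 and 503 to 715 without 1 library. Fewer libraries to satisfy raise such counts by construction. The gene start share differed by −10.4 points within 500 bp, and by −13.9 to −12.0 at 100000 and −5.52 to −2.8 at 10000 without 1 library. Recovery of untreated VDR in tumor and of tumor in untreated VDR was 39.3% and 38.8% within 100 bp at 100000 (62.1% for tumor within 500 bp) and 86.9% and 83.9% at 10000 (94.2%), and without 1 library 45.9 to 51.0% and 48.2 to 53.5%, and 96.6 to 98.5% and 91.4 to 93.7%. Signs of log2 changes at 100000 turned with a score of at least 10 for Mpdz (−0.60), Nfib (−2.37), Cntn2 (−1.61), En1 (−2.98), Cbln1 (−1.72), Rbfox3 (−3.19), Grm4 (−1.53), Jund (−0.62), Kmt2d (−2.42), Col5a1 (−3.85), Prrx1 (−1.07), Actb (−2.24), Ywhaz (−1.37), Mcm5 (−0.44), E2f1 (−0.72), Hoxc4 (−0.43), Aldh1l1 (−2.98), Irf8 (−2.01), Pecam1 (−1.04) and Cdh5 (−2.18). With regions in at least 2 libraries they turned for Nfib (−0.28), Gpr161 (−0.25), Cbln1 (−0.18), Rbfox3 (−0.63), Kmt2d (−0.25), Ywhaz (−0.46) and Cdh5 (−0.11), and with whole lists for Nfib (−0.07) and Actb (−0.16). After centring they turned for Ptch1 (0.08), Gas1 (0.01), Gpr161 (−0.17), Cbln1 (−0.21), Tiam1 (0.01), Jund (−0.12), Prrx1 (−0.19), Ywhaz (−0.01) and Cdh5 (−0.15). Nrxn3 at 10000 turned to −0.29 with 20000 summits. Chromosome differences at 10000 against 100000 summits turned for 2 (−0.53, against 1.39 points) and X (0.0967, against −0.994), and were 5.39 on 1, −1.24 on 3, −1.76 on 5, 0.49 on 6, −1.47 on 7, 3.07 on 8, −1.68 on 9, −1.44 on 10, −1.35 on 11, −0.46 on 12, −1.58 on 13, −1.23 on 14, −1.22 on 16, −1.23 on 18, −0.53 on 19 and 0.0633 on Y. Of the other values for single genes, 283 lost and 20 gained a call under an alternative, and 2798 kept their direction and side of the threshold.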
